A study of Oryza sativa with 6 samples.

Results

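The miR390 and miR393 names of a small RNA count table from germinating rice seeds were compared between seeds kept at 35 °C and seeds kept at 25 °C. Every name with the family number of miR390 or miR393 was taken, which gave 35 of the 641 names in the table, 16 of miR390 and 19 of miR393. Names entered by family number alone, whatever their level, but the families were chosen with earlier results of these data known. The hot group held 3 libraries (hot 1 to 3) from seeds kept at 35 °C, in an incubator, and the normal group held 3 libraries (normal 1 to 3) from seeds kept at 25 °C in the laboratory under a cardboard box. All 6 libraries came from seeds of Kasalath, an aus-type cultivar, aged 5 days after germination per the labels, grown on damp tissue without medium with 5 seeds to a dish. Temperature and place of growth changed together, so they cannot be told apart. No source used here ties the 4 dishes of a temperature to its libraries, so p-values measure the spread between libraries, which may be partly technical.

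Both families act on auxin signalling, from different sides. The 5p strand of miR390 is held by the Argonaute protein AGO7 and directs the cutting of the non-coding TAS3 transcript, from which trans-acting small interfering RNAs (tasiRNAs) are made that silence auxin response factor genes of the repressor type. The 5p strand of miR393 targets transcripts of the TIR1/AFB F-box proteins, the receptors that bind auxin, and in rice these include OsTIR1 and OsAFB2. Each miRNA is cut from a hairpin as a duplex of a 5p and a 3p strand, and for both families the 5p strand is the one known as the guide, while the 3p strand is the star strand.

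Depth was low. Library totals, recovered from the authors' normalised values, were between 157488 and 243859 in the hot libraries and between 250255 and 275549 in the normal libraries. The column sums of the entered counts were 169694 to 377473 in the hot libraries and 136294 to 203192 in the normal libraries. These sums are not numbers of reads, since the same counts stand under several names, and what the library totals count is not stated in the file headers. A count of 0 allows a level of up to 3 counts per library, which is as much as 19.0 counts per 1000000 of the library total (CPM) in hot 1 and as little as 10.9 in normal 3, covering counting error only. The table holds miRNA names alone, so the tissue named in the labels could not be checked against marker genes.

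The 35 names stood for few independent counts. Among the 16 miR390 names there were 6 distinct count patterns, and among the 19 miR393 names 3, where rows that are identical or whole multiples of each other count as 1 pattern. In the miR390 family 10 names shared the row of mir390-5p. The names mir390d-5p and mir390g were identical to it, and mir390f was 2 times, mir390b-5p and mir390d 3 times, mir390a-5p 5 times, mir390c 7 times, mir390a 12 times and mir390b 13 times that row in all 6 libraries. In the miR393 family 15 names shared the row of mir393-5p, 9 of them identical to each other, with mir393a-5p and mir393d at 3 times, mir393 at 5 times, mir393b-5p at 6 times, mir393c at 7 times and mir393b at 10 times.

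The names without an arm followed the 5p rows. The name mir390 differed from 5 times mir390-5p by 1 count, in hot 2. The name mir390e was mir390-5p plus mir390c-5p, a row with 1 count in hot 2, 1 in normal 3 and 0 elsewhere. The name mir393a differed from 13 times mir393-5p by 3 counts, also in hot 2. Among the 3p names, mir390a-3p was 2 times mir390b-3p, mir393b-3p was 2 times mir393a-3p, and mir393c-3p was identical to mir393a-3p. Only mir390-3p had a 3p pattern of its own besides these. Its counts were below those of mir390b-3p in every library, and whether the rows share reads was not tested. The deposited normalised values followed the same multiples to their last printed digit in all 15 names above 1 times their smallest row, 8 of miR390 and 7 of miR393. No row of another family was identical to a row of these 2 families.

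**Figure D1:**
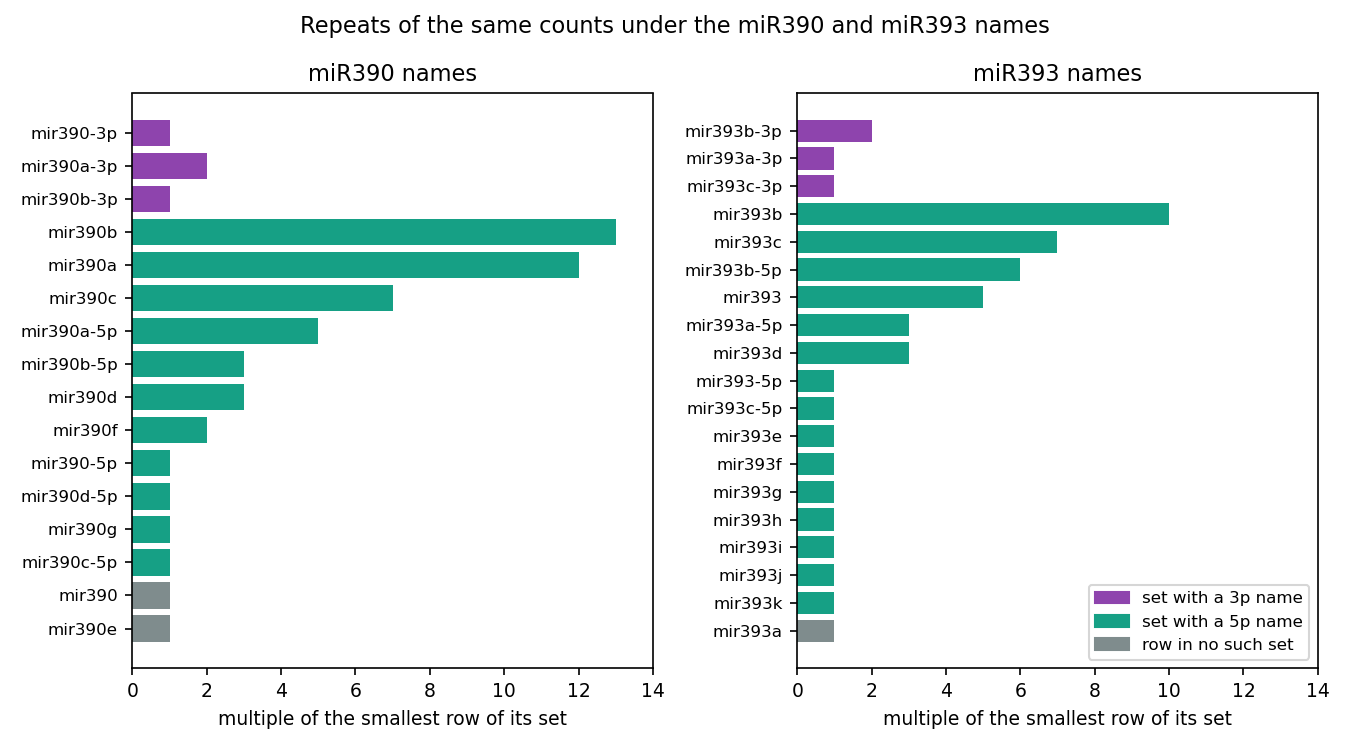
Each bar is 1 name of miR390 (left) or miR393 (right), and its length is the multiple of the smallest row of the set that the name belongs to. Purple sets hold a 3p name, green sets a 5p name, and grey rows belong to no such set. The highest multiples are 13 for mir390b and 10 for mir393b, and no 3p name is above 2.

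The miR393 3p strand was higher in the hot libraries. The row mir393a-3p had 7, 26 and 13 counts in hot 1 to 3, against 1, 1 and 1 counts in normal 1 to 3. Every hot library was above every normal library, and hot 2 was the highest. Tested without a filter on low counts, so that no group decided its entry, mir393a-3p had a log2 fold change of 3.24 (SE 0.91, edgeR's quasi-likelihood test, Benjamini-Hochberg adjusted p = 0.0427 over 641 names, of which 7.96% were called higher), and the identical row mir393c-3p had the same values. Its doubled row mir393b-3p was the only miR393 3p row that passed the low-count filter (a count minimum of 10 in at least as many libraries as a group holds, scaled to depth), with 14, 52 and 26 counts in the hot libraries and 2, 2 and 2 in the normal libraries. It passed through the hot libraries alone, so its test among the filtered names is given as a value and supports nothing. Under TMM scaling (edgeR's trimmed mean of M-values) mir393b-3p averaged 108.6 ± 50.7 CPM (here counts per 1000000 of the TMM-scaled column sum) in the hot libraries and 12.2 ± 3.10 CPM in the normal libraries (SD, n = 3 each). Its log2 fold change was 3.15 (SE 0.60, edgeR adjusted p = 0.0119 over 253 names). It was the 1 name called higher of the 10 names of both families that were tested, where 7.11% of all tested names were called higher, and that count says nothing of the members that did not pass the filter. None of the 10 was called lower, by edgeR at an adjusted or an unadjusted p under 0.05, by DESeq2 or by limma-voom. Of all tested names edgeR called 15.8% lower, DESeq2 15.8% lower and 25.3% higher, and limma-voom 17.4% lower and 7.11% higher. Behind the same filter, DESeq2 and limma-voom also called mir393b-3p alone of the 10.

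Doubling a row makes its counts look more precise than they are. With 1 row for each distinct pattern at the same filter, mir393a-3p was not tested, and the count of miR390 and miR393 names called higher was 0 of 4, where 18.7% of 166 patterns were called higher. With the count minimum lowered to 3, a setting chosen after seeing the data, mir393a-3p itself was tested and had a log2 fold change of 3.18 (SE 0.68, edgeR adjusted p = 0.0152), where 14.2% of 226 patterns were called higher. This filter, too, was passed through the hot libraries. The doubled row mir393b-3p was tested in 14 other settings. All but the fit without a filter let it in through the hot libraries alone. Its adjusted p (edgeR, DESeq2 or limma-voom) was under 0.05 in each, between 0.00165 and 0.0498. With doubled counts behind that filter, these are given as values and add no support. The log2 fold change of mir393b-3p was between 2.60 (without hot 2) and 4.09 (with the deposited library totals). The highest adjusted p came without normal 2.

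Scaled to the deposited library totals, mir393a-3p had 44.4, 108.1 and 53.3 CPM in the hot libraries, against 3.79, 4.00 and 3.63 CPM in the normal libraries. Pooled over libraries, 46 counts stood against 3, a ratio of 18.9 with an exact binomial 95% interval of 6.07 to 94.9 that covers counting error only. On the TMM scale the ratio was 9.49 (3.05 to 47.7) and with column sums 8.52 (2.74 to 42.8). Of the 272 distinct patterns with 10 or more counts in all, 1 had a higher pooled ratio over the library totals, mir398a-3p, named after its values were seen, and the median pooled ratio was 1.58. By mean level in a group, mir393a-3p stood at place 154 of 412 patterns in the hot libraries and at place 286 in the normal libraries. On the TMM scale a two-sided exact permutation test gave p = 0.1, the smallest p that 3 against 3 libraries allow.

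The miR393 5p strand, the guide to the auxin receptor transcripts, was close to the limit of detection. The row mir393-5p had 1, 3 and 1 counts in the hot libraries and 0, 0 and 1 counts in the normal libraries. Pooled over the library totals, 5 counts against 1 gave a ratio of 6.15 with an exact binomial 95% interval of 0.689 to 291, so a difference was not detectable at this depth. Scaled to the library totals every hot library was above every normal library. The values were 6.35, 12.5 and 4.10 CPM in the hot libraries and 0, 0 and 3.63 CPM in the normal libraries (two-sided exact permutation p = 0.1, the smallest possible). The closest values, in hot 3 and normal 3, were 1 count each. Of the 272 patterns with 10 or more counts, 30.1% were apart in this way on that scale. The row mir393-5p had too few counts to be among these patterns. On the TMM scale the groups overlapped, with 6.35, 9.58 and 2.72 CPM in the hot libraries and 0, 0 and 4.30 CPM in the normal libraries. The name mir393a, which repeats these counts about 13 times, had 13, 42 and 13 counts in the hot libraries and 0, 0 and 13 counts in the normal libraries, and its groups were likewise apart on the library totals and overlapped on the TMM scale. Its log2 fold change was 1.92 (SE 1.18, edgeR adjusted p = 0.229), and 16 of the 22 names of the whole table that were at 0 in normal 1 and normal 2 and above 0 in the other libraries were these miR393 names.

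Whether the miR393 family sum was called changed with normal 3, the filter and the test. The family sum, with identical rows added once, had a log2 fold change of 2.65 (SE 1.03, edgeR adjusted p = 0.0978) and was not called, where 21.9% of 32 families were called higher. Whole multiples stayed in this sum, so the same counts entered it several times. With 1 row per distinct pattern the family had 2.64 (SE 0.91, edgeR adjusted p = 0.0728), where 16.1% of 31 families were called higher. With multiples kept, the edgeR adjusted p was 0.00393 without normal 3 and 0.00607 without a filter. The DESeq2 test of that sum gave an adjusted p of 0.0362. Without normal 3 25% of 32 families were called higher, without a filter 4.42% of 113, and by DESeq2 18.8% of 32. Without normal 3 the 5p rows were at 0 in all remaining normal libraries, and a fitted fold change of such a row is then no bound. The family sum still held 3 counts in normal 1 and 3 in normal 2, all from the 3p rows.

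The miR390 3p rows had more counts than mir390-5p, mir393-5p and mir393a-3p in both groups. The row mir390b-3p had 11, 32 and 29 counts in the hot libraries, against 10, 13 and 11 counts in the normal libraries. The other 3p row, mir390-3p, had 9, 31 and 25 counts in the hot libraries and 9, 10 and 10 counts in the normal libraries. In both rows hot 2 and hot 3 were higher than hot 1, and hot 1 held about as many counts as the normal libraries. These counts are not scaled for depth, and hot 1 had the smallest library total, 157488. On the TMM scale mir390b-3p averaged 83.6 ± 16.7 CPM in the hot libraries and 69.3 ± 21.7 CPM in the normal libraries (SD, n = 3 each), and the groups overlapped. Its log2 fold change was 0.30 (SE 0.42, edgeR adjusted p = 0.621). The doubled row mir390a-3p had 0.29 (SE 0.35, edgeR adjusted p = 0.553) and mir390-3p 0.38 (SE 0.44, edgeR adjusted p = 0.54).

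The reading of miR390 3p turned on the scaling. Scaled to the library totals mir390b-3p had 69.8, 133.1 and 118.9 CPM in the hot libraries and 37.9, 51.9 and 39.9 in the normal libraries, so every hot library was above every normal library, as in 30.1% of the 272 patterns with 10 or more counts on that scale. The log2 fold change was then 1.31 (SE 0.48, edgeR adjusted p = 0.0679). Its doubled row mir390a-3p had 1.31 as well and was called (edgeR adjusted p = 0.0491), where 32.8% of all tested names were called higher. The median log2 fold change of all 253 tested names was 0.00590 on the TMM scale and 0.993 on that of the library totals. On the TMM scale 16.2% of the 272 patterns had every hot library above every normal library, and mir393a-3p was among them while mir390b-3p was not.

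**Figure D2:**
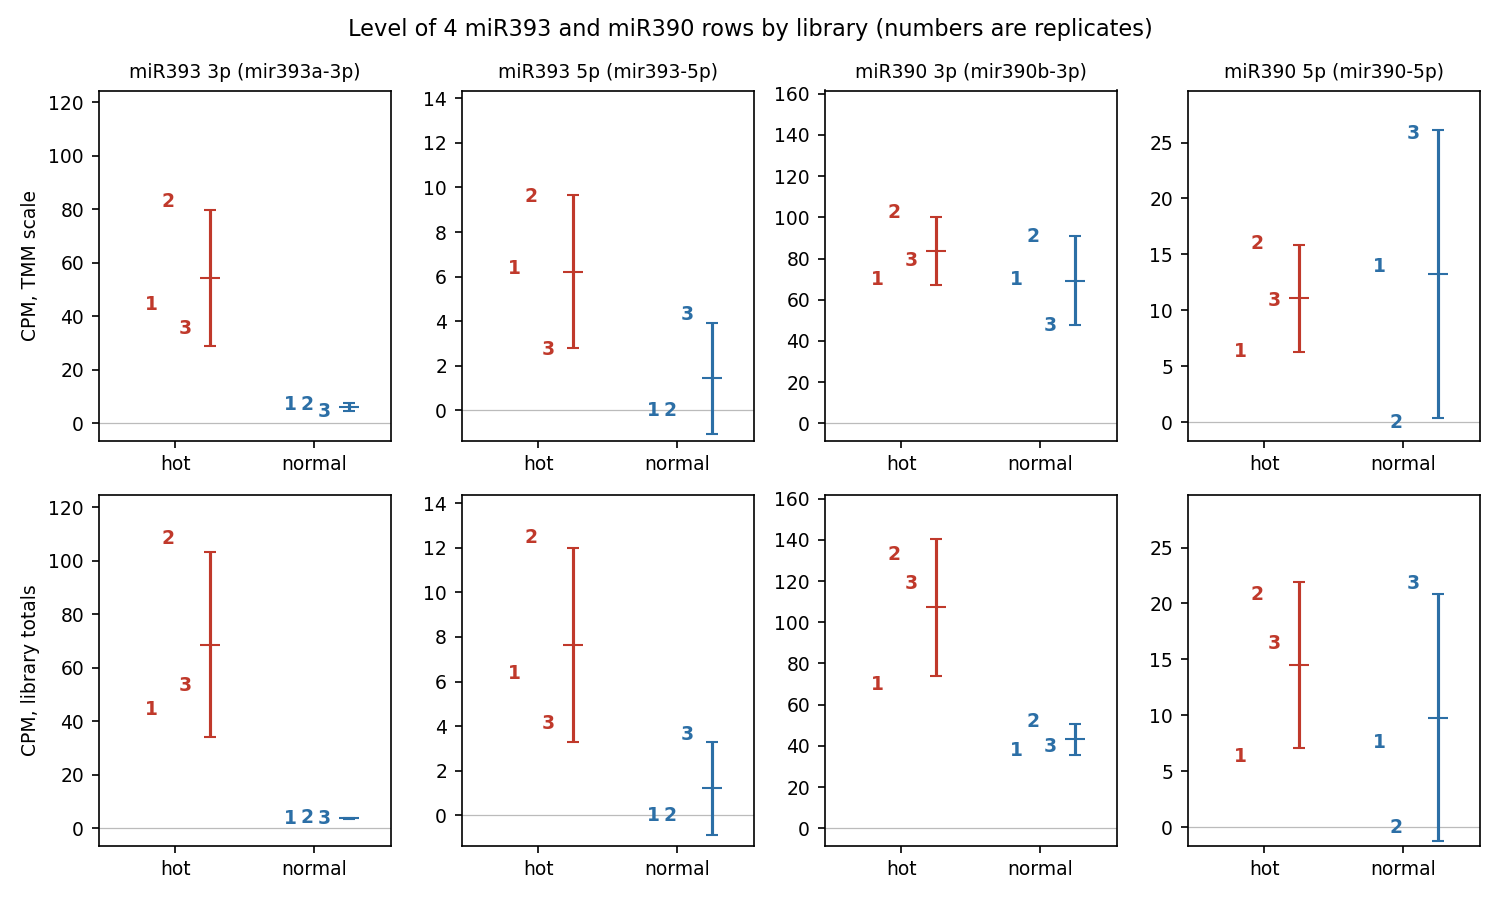
Level of mir393a-3p, mir393-5p, mir390b-3p and mir390-5p in every library, in CPM on the TMM scale (upper row) or of the deposited library totals (lower row), hot libraries in red and normal libraries in blue. Each digit is a replicate, and the bars are the mean and SD of 3 libraries. The miR393 3p values lie between 35.3 and 83.1 CPM in the hot libraries and between 4.30 and 6.98 CPM in the normal libraries on the TMM scale, while both miR390 arms overlap there.

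The miR390 5p strand, the one that AGO7 binds, had few counts and no difference past the threshold. The row mir390-5p had 1, 5 and 4 counts in the hot libraries, against 2, 0 and 6 counts in the normal libraries. The groups overlapped, and normal 2 and normal 3 were the extremes. Pooled over the library totals, 10 counts against 8 gave a ratio of 1.54 with an exact binomial 95% interval of 0.547 to 4.49. The 5 tested names that carry these reads (mir390, mir390a, mir390a-5p, mir390b and mir390c) had log2 fold changes of -0.28 to -0.25, with standard errors of 0.99 to 1.07 and edgeR adjusted p of 0.89 to 0.894. The sign was positive in all 5 with the library totals, in limma-voom, with the replicate block and without normal 3, and in mir390 also without the miR156 names.

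Normal 2 had no miR390 5p count, although both miR390 3p rows were present there with 13 and 10 counts. Of the 20 names of the whole table that were at 0 in normal 2 alone, 12 were miR390 names, and these are repeats of the same few reads. Without normal 2 the log2 fold change of mir390b was -0.84 (edgeR adjusted p = 0.24). Of the 8 miR390 names tested, 0 were called in either direction by edgeR, 0 had an unadjusted p under 0.05, and DESeq2 and limma-voom also called 0.

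In the smallest row of each set, the 3p counts were higher than the 5p counts in every library but normal 3, where miR393 had 1 of each. What the multiples stand for is not stated, so the smallest row need not be the number of reads of an arm. Between larger rows the order turned in normal 3. There mir390b-5p had 18 counts against 11 of mir390b-3p, and mir393b-5p had 6 against 2 of mir393b-3p. Among the counts of mir390b-3p and mir390-5p, the 3p share of miR390 was 91.7%, 86.5% and 87.9% in the hot libraries and 83.3%, 100% and 64.7% in the normal libraries. The groups overlapped, and the exact Clopper-Pearson 95% intervals were wide, 61.5% to 99.8% in hot 1 and 38.3% to 85.8% in normal 3. For miR393, from mir393a-3p and mir393-5p, the 3p share was 87.5%, 89.7% and 92.9% in the hot libraries, and the normal libraries held too few counts for a share, 3 of the 3p row and 1 of the 5p row in all. Summed over 1 row per pattern, 15 of the 27 families with both a 3p and a 5p row had the higher count on the 3p side. On these sums miR390 was 1 of 8 families with 3p above 5p in all 6 libraries. Several of those 15 families, miR159, miR166 and miR319 among them, are ones whose 3p strand is the known guide.

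A ratio of 2 counts from the same library cannot move with any library scaling. The ratio of mir393a-3p to mir390b-3p, chosen after seeing the data, was 0.636, 0.812 and 0.448 in hot 1 to 3, against 0.1, 0.0769 and 0.0909 in normal 1 to 3. All hot libraries were above all normal libraries. The mean was 0.632 ± 0.182 in the hot libraries and 0.0893 ± 0.0116 in the normal libraries (SD, n = 3 each), a quotient of 7.08, and a two-sided exact permutation test gave p = 0.1, the smallest possible. With mir390-3p as the denominator the ratio was 0.778, 0.839 and 0.520 in the hot libraries and 0.111, 0.1 and 0.1 in the normal libraries, with the same exact permutation p. The numerator was 1 in every normal library, so the SD of the normal ratios comes from the denominator and leaves out the counting error of a single count.

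**Figure D3:**
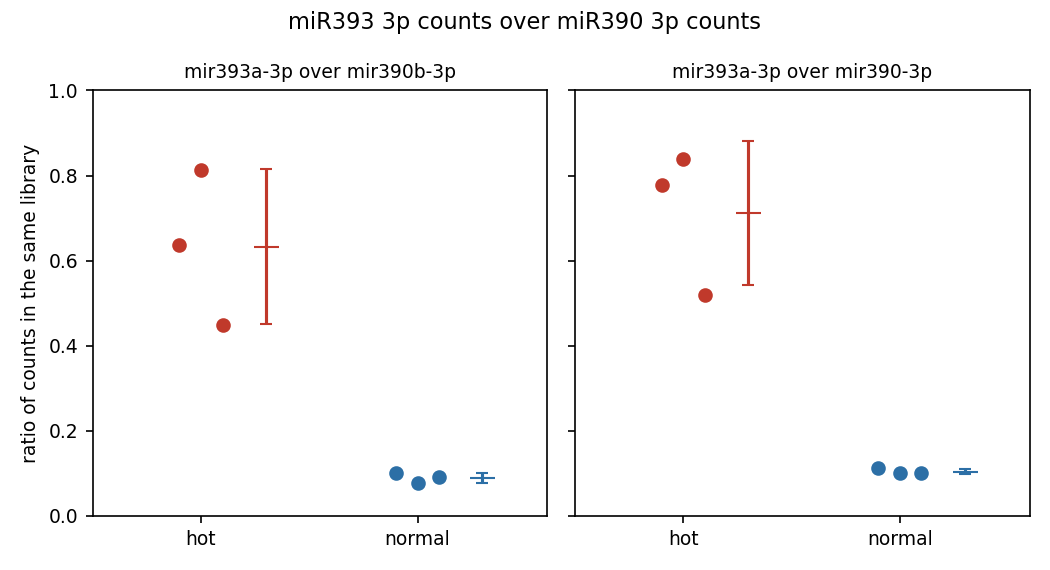
Count of mir393a-3p over the count of mir390b-3p (left) or mir390-3p (right) in the same library, for 3 hot libraries (red) and 3 normal libraries (blue), with the mean and SD beside the points. The hot libraries lie between 0.448 and 0.839 and the normal libraries between 0.0769 and 0.111.

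Counts were also summed by arm over 1 row per pattern. The miR390 3p sum adds mir390b-3p and mir390-3p, so any reads that these rows share were counted more than 1 time. This arm had 20, 63 and 54 counts in the hot libraries and 19, 23 and 21 counts in the normal libraries. Its log2 fold change was 0.79 (SE 0.36, edgeR adjusted p = 0.185 over 50 family arms, of which 10% were called higher). These arms had a TMM fit of their own, in which the median log2 fold change of all arms was 0.153. The value of 0.79 leaned on that scaling. With column sums only, the miR390 3p arm had 0.20, beside 0.16 for mir390b-3p and 0.24 for mir390-3p. In the TMM fit of the arms, the miR390 rows without an arm had 0.15 (SE 1.02, edgeR adjusted p = 0.95). The miR393 row without an arm had 2.29 there (SE 1.16, edgeR adjusted p = 0.239). The miR390 family sum, which kept whole multiples, had 0.27 (SE 0.65, edgeR adjusted p = 0.775 over 32 families). With 1 row per pattern that family had 0.45 (SE 0.44, edgeR adjusted p = 0.466). The miR393 3p arm did not pass this filter, and with the count minimum at 3, passed through the hot libraries, it had 3.48 (SE 0.64, edgeR adjusted p = 0.0191), where 10% of 60 arms were called higher.

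**Figure D4:**
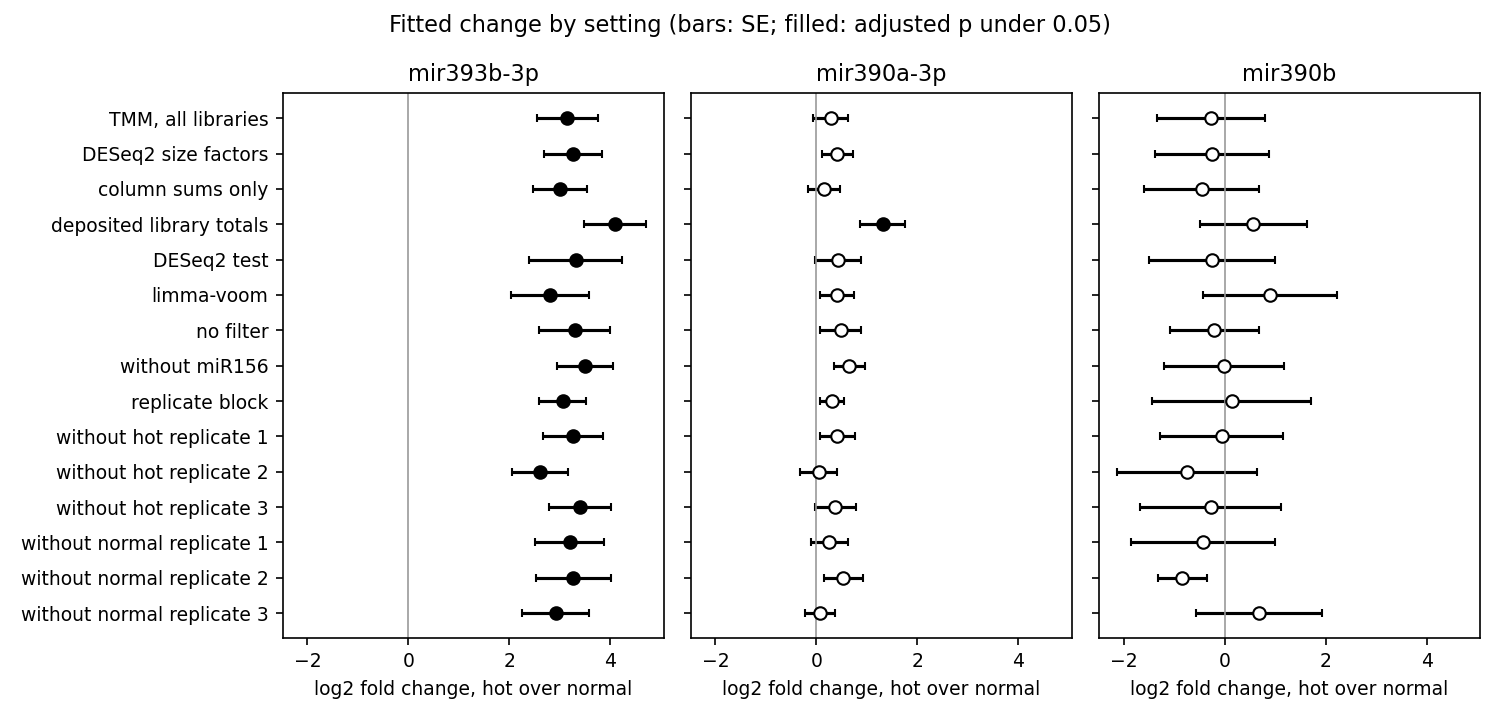
Log2 fold change, hot over normal, of mir393b-3p, mir390a-3p and mir390b in each setting in which they were tested, with the standard error as bars. Filled points passed adjusted p 0.05. All points of mir393b-3p are filled, between 2.60 and 4.09, mir390a-3p is filled with the deposited library totals alone, and mir390b takes both signs with no filled point. The row mir393b-3p is mir393a-3p doubled. Except in the fit without a filter, it entered through the hot libraries alone, so its filled points add no support.

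The profile of each tested arm over the 6 libraries was set beside those of other families, as the root mean square difference of centred log2 CPM, 1 row per pattern. Nearest to mir393b-3p were mir396a (0.413), mir396b (0.465) and mir396c-5p (0.479), of the family that targets growth-regulating factor transcripts, among 171 patterns. The row mir396a had 1484, 2640 and 2423 counts in the hot libraries and 360, 300 and 458 counts in the normal libraries. The prior count of 2 weighs on mir393b-3p, whose doubled counts in the normal libraries were 2, 2 and 2, and pulls its groups together. In the edgeR fits mir393b-3p had a log2 fold change of 3.15 among names, and the miR396 family sum had 1.65 among families. Nearest to mir390a-3p were mir159-3p (0.226), mir159f (0.233) and mir156u (0.265), among 169 patterns. Nearest to mir393a was mir398a (0.656), of a family that acts on copper/zinc superoxide dismutase mRNAs, which also had 0 counts in normal 1 and normal 2. For mir390b the nearest rows, mir444b and mir444a (1.27 each), were farther away, and they had 5 counts in normal 2 where mir390b had 0.

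The other auxin-related families had no name called higher. Of 14 tested names of miR160, which targets repressor-type auxin response factors, 0 were called in either direction. Its most abundant name, mir160a, averaged 839 ± 499.2 CPM in the hot libraries and 593.7 ± 323.3 CPM in the normal libraries (SD, n = 3 each, log2 fold change 0.51, SE 0.59, edgeR adjusted p = 0.54). Of 8 tested names of miR164, which targets NAC transcription factors, 0 were called, and mir164a had 0.19 (SE 0.50, edgeR adjusted p = 0.83). For miR160 and miR164 edgeR had 0 names at an unadjusted p under 0.05, and DESeq2 and limma-voom called 0. Of 21 tested names of miR167, which targets activating auxin response factors, 8 were called lower and 0 higher, where 15.8% of all tested names were called lower, with mir167a at -0.28 (SE 0.14, edgeR adjusted p = 0.144). With the library totals 0 miR167 names were lower, and their median log2 fold change was 0.51 against -0.45 under TMM. Over the whole list of 5 families, miR390 and miR393 included, 1 of 53 tested names was called higher (1.89%, beside 7.11% of all tested names) and 8 lower (15.1%, beside 15.8%), with a median of 0.12 beside 0.00590 over all names.

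Of other triggers of phased small interfering RNAs, miR2118 had 2 names with 0 counts in the hot libraries and 3 counts in the normal libraries, all in normal 1, and neither was tested. The silencing machinery families miR162 and miR168, which target Dicer-like and Argonaute transcripts, had 0 of 14 tested names called by edgeR in either direction. Their median log2 fold change was -0.70 on the TMM scale and 0.21 with the library totals, so its sign turned with the scaling. The medians of miR162 were -1.13 and -0.21 on these scales, and those of miR168 -0.28 and 0.63. Over all tested names the medians were 0.00590 and 0.993. In the miR162 family 5 of 7 names had an unadjusted p under 0.05 in the lower direction, DESeq2 called 3 lower (15.8% of all tested names) and limma-voom 5 (17.4% of all tested names), and mir162 had 544, 375 and 506 counts in the hot libraries and 662, 785 and 700 counts in the normal libraries (log2 fold change -1.13, SE 0.44, edgeR adjusted p = 0.0925). The most abundant miR168 name, mir168-5p, had -0.28 (SE 0.25, edgeR adjusted p = 0.423).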

How the data were processed

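Per the labels' protocols, a mirVana kit was used to isolate small RNA from 3 hot and 3 normal samples, and NEBNext libraries were size-selected on beads. The series' design text gives a MiSeq as the sequencer. The authors deposited 1 table of raw expression, whole counts per miRNA name, and of normalised expression, a signal equal to the count over 1 total per library, per the file headers and the values. The matching tool, miRNA database release and genome build were not given in the sources used here, and no sequences were used here.

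Library totals were recovered as the median ratio of count to normalised value over rows with a count above 20. Counts were tested with edgeR 4.0.16 in R 4.3.3 (filterByExpr with a count minimum of 10, TMM, quasi-likelihood F test, no term besides group, 6 libraries in 1 fit) at a Benjamini-Hochberg adjusted p of 0.05 over all tested names, family arms or families. A standard error is the log2 fold change over the square root of F. DESeq2 1.42.0 and limma-voom (limma 3.58.1) served as alternatives. CPM are counts per 1000000 of the TMM-scaled column sum, and log2 CPM used a prior count of 2. Exact permutation tests and intervals were computed in Python 3.11.15 with SciPy 1.17.1. The fits were also run on simulated counts in which each row was drawn independently. That run cannot check them for the repeated rows of this table.

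Every miR390 and miR393 name is accounted for by its pattern. The most abundant tested name stands for each other family of the pathway lists, and the 3 nearest patterns for each tested arm. The members, lists and rules were chosen with earlier results of these data known. Every pair of libraries within a group differed (chi-square per degree of freedom 5.13 to 23.2), so none was counted as a copy. The labels name no batch.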

Additional observations from a re-analysis of the deposited data

How the results depend on the processing

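In the analysis as reported 1 of 10 tested miR390 and miR393 names was called higher, beside 7.11% of all tested names. The number was also 1 in 13 of 16 other settings. These include all 6 fits with a library left out, where 4.92% to 23.2% of all tested names were called higher. It was 2 of 10 with the deposited library totals (32.8% of all tested names) and 3 of 35 without a filter (7.96%). With 1 row per distinct count pattern it was 0 of 4 (18.7%), and mir393a-3p was not tested. The number called lower was 0 in all 16, where 0.395% to 22.9% of all tested names were called lower. The miR390 3p arm, 0.79 as reported, kept a positive, uncalled value in its 16 settings, between 0.20 (column sums) and 1.35 (library totals), with 0.30 without hot 2. The difference in level of mir390b-3p, 14.4 CPM as reported, was between 3.36 (without normal 3) and 64.0 (library totals), with 5.05 without hot 2. That of mir393a-3p, 48.2 CPM as reported, was between 33.8 (without hot 2) and 64.8 (library totals). The difference in the mir393a-3p to mir390b-3p ratio was positive in 7 other settings (0.453 to 0.635). The miR393 row without an arm, mir393a, repeats mir393-5p about 13 times. It passed at 2.63 without a filter, where 6.75% of 163 arms were called higher. The miR393 5p arm, with these counts entered 1 time, had 2.05 in that fit (SE 1.47, edgeR adjusted p = 0.495). Leaving out single libraries gave 1.47 to 7.37 for the row without an arm. It was past the threshold without normal 3, where 12% of 50 arms were called higher. The miR393 family sum, with whole multiples kept, passed at 2.62 in the DESeq2 test (18.8% of 32 families called higher). Without a filter it passed at 2.67 (4.42% of 113). It ranged from 2.16 to 4.77 over left-out libraries, again past the threshold without normal 3 (25% of 32). With 1 row per pattern it had 2.64 and did not pass.

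The uncalled sign of miR390 5p turned. The rows without an arm had -0.086 with DESeq2 size factors, -0.42 with column sums, -0.082 in the DESeq2 test and -0.080 without miR156, and -0.51 to 1.24 over left-out libraries. The miR390 family sum had -0.24 with column sums and -0.13 to 0.85 over left-out libraries. In the order mir390, mir390a, mir390a-5p, mir390b and mir390c, values were 0.60, 0.57, 0.58, 0.57 and 0.57 with the library totals, 0.58, 0.87, 0.56, 0.90 and 0.68 in limma-voom, and, over left-out libraries, from -0.80, -0.83, -0.83, -0.84 and -0.83 (without normal 2) to 0.72, 0.68, 0.69, 0.68 and 0.69 (without normal 3). The name mir390 had 0.021 without miR156. With the replicate number as a block the 5 names had 0.044, 0.13, 0.031, 0.14 and 0.077. The block changed no call of the 10 tested names, and mir393b-3p had 3.05 with it. Deviations from the group means had correlations of 0.402, -0.186 and -0.0153 between same-numbered libraries, over 173 patterns. Between differently numbered libraries they were -0.466 to 0.510. With 3 libraries in a group, such correlations cannot settle whether the numbers pair the libraries. The cause of these changes was not tested.

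Shares of all tested names stand in brackets. The auxin list had 2 of 53 names called higher with the library totals (32.8%). Without a filter it had 3 of 103 (7.96%), and with 1 row per pattern 0 of 37 (18.7%). As reported 8 of 53 were called lower (15.8%). With DESeq2 size factors (6.32%), the library totals (0.395%), no filter (2.34%) or without miR156 (4.57%) 0 were lower. With 1 row per pattern 5 of 37 were lower (16.3%), and 0 to 10 over left-out libraries (4.92% to 20.3%). The phased trigger list had 1 of 8 higher with the library totals (32.8%). The silencing list had 1 of 14 higher with the library totals (32.8%). It had 3 of 14 lower in the DESeq2 test (15.8%), 5 in limma-voom (17.4%), and 0 to 7 over left-out libraries (4.92% to 20.3%). Depth limits both 5p strands, since mir390-5p and mir393-5p held 18 and 6 counts over all libraries.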
